A study of Mus musculus with 4 samples.

Results

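Ormdl2, Acer2 and S1pr1 are 3 genes of sphingolipid biology, and each of them lay above 0 on every array of this study of bleomycin lung injury in mice, where 0 is the median log ratio of an array. They were picked out by platform gene symbol for that reason, so their values are given as a description and carry no test. They are 3 of 13410 genes with a single symbol on the array, and 3 of the 8384 genes that had enough values to be tested. Each is measured by 1 probe. The study put lung RNA of 4 mice, numbered 1 to 4, on a 2-colour array each, against a single pool of lung RNA from control A/J mice, all of it amplified. A/J is an inbred laboratory strain, and bleomycin is a DNA-damaging drug used to injure the lung. The treated group is 4 A/J mice given bleomycin. The control is a pool of A/J lungs, and the labels give neither its number of mice, nor any animal's age, nor the dose, route or time of treatment. Because the control is 1 pool, the spread between control mice is not in any error below. Whole lung RNA also cannot tell fewer cells of a type from less RNA per cell.

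Sphingolipids are membrane lipids built on a sphingoid base. Serine palmitoyltransferase starts their synthesis in the endoplasmic reticulum, and ORMDL proteins bind this enzyme and hold it back when ceramide is plentiful. Ceramidases cleave ceramide to sphingosine, sphingosine kinases turn sphingosine into sphingosine-1-phosphate, and this lipid leaves the cell and acts on a family of G protein-coupled receptors. Ormdl2 encodes 1 of the ORMDL proteins, Acer2 the alkaline ceramidase of the Golgi, and S1pr1 the receptor through which sphingosine-1-phosphate tightens the endothelial barrier of the lung and guides lymphocytes out of lymphoid organs. The 3 genes therefore stand at the entry, the breakdown and the sensing steps of the pathway.

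Because the genes were picked for lying above 0 together, the RefSeq promoter windows of GRCm38.p6 are shown for those that had one, which was 2 of the 3 (Ormdl2 and Acer2). Each line holds the 250 bases before the transcription start, 5′ to 3′ on the gene's own strand, and capitals mark matches on either strand to the motifs searched.
Ormdl2, chr10:128821630-128821879, minus strand: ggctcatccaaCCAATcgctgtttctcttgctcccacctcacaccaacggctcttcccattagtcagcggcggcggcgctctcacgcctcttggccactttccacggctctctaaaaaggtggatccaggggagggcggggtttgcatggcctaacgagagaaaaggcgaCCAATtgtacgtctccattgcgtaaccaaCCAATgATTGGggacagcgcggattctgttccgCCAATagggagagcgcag
Acer2, chr4:86874164-86874413, plus strand: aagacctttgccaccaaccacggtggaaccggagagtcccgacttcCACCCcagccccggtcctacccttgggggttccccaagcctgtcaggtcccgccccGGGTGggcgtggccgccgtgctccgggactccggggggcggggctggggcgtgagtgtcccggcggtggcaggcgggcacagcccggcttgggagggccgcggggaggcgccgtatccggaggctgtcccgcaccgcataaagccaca

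The motifs were GAANNTTC (heat shock element core), ACGTG (hypoxia element core), CACCC (Kruppel-like factor core), TATAAA, and CCAAT, the last chosen after the sequences had been seen. Ormdl2 held 5 CCAAT matches, which began 239, 80, 51, 45 and 18 bases before the start, and none of the other 4 motifs. Among 32851 promoter windows of the same length, 33.8% held at least 1 CCAAT and 0.213% at least 5. Acer2 held 2 CACCC matches and none of the other motifs, and 21.1% of windows held at least 2. GAANNTTC, ACGTG and TATAAA were in 6.69%, 16.6% and 12.4% of all windows and in neither of these. No marked match overlapped another motif. The Acer2 window was richer in G and C, at 73.2% of bases against 57.2% for Ormdl2. Such matches describe letters and show no binding.

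A value on the array is the log ratio of the treated mouse and the pool, centred on the array's median and read as log2. Which RNA is on top of the ratio is not stated. If it is the treated mouse, as the wording of the titles would have it, a value above 0 means more RNA in the treated lung. If it is the pool, every sign below turns and the sizes stay. The log base is likewise unstated, so fold sizes hold only for base 2. The arrays had values for 7941 to 9994 genes, with medians between -0.009 and 0.029 before centring. Over all spots, the arrays of mice 1 and 2 correlated at r = 0.728 and those of mice 3 and 4 at r = 0.858, against 0.453 to 0.574 for the other pairs of mice, and no batch is named in the labels. The number of arrays limits the precision.

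Ormdl2 had the largest values of the 3 genes. Its values were 1.94, 1.29, 1.83 and 1.37 in mice 1 to 4. Mice 1 and 3 were the high pair and mice 2 and 4 the low pair, with no value near 0. The mean was 1.61 ± 0.33 (SD, n = 4), which in base 2 is a 3.05-fold difference. In mouse 1 it ranked 3 from the top among the 9994 genes with a value. In mice 2, 3 and 4 it ranked 50, 25 and 35.

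Acer2 had values of 1.49, 1.07, 1.80 and 1.29 in mice 1 to 4. Its mean was 1.41 ± 0.31 (SD, n = 4), or 2.66-fold in base 2. Mouse 2 was the lowest for both Acer2 and Ormdl2. Mouse 3 was the highest for Acer2, where it nearly met Ormdl2, and the 2 genes differed there by 0.03 against 0.45 in mouse 1. On each array Acer2 ranked between 26 (mouse 3) and 94 (mouse 2) among all genes with a value.

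S1pr1 had the lowest mean and the smallest spread of the 3 genes. It stood at 1.30, 0.96, 0.90 and 0.97 in mice 1 to 4. Mouse 1 was above the other 3 mice, which lay close together. The mean was 1.03 ± 0.18 (SD, n = 4), or 2.05-fold in base 2, and 0.94 ± 0.04 (SD, n = 3) without mouse 1. S1pr1 ranked from 56 in mouse 1 to 363 in mouse 3. In mouse 3 it was just above the 95th percentile of genes on that array, which was 0.865.

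**Figure D1:**
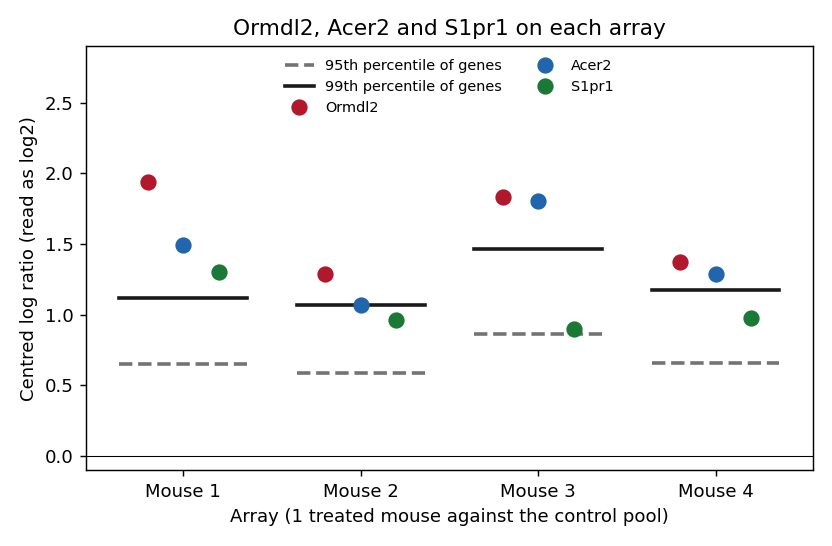
Centred log ratio (vertical axis, read as log2) of Ormdl2, Acer2 and S1pr1 on each of the 4 arrays (horizontal axis, 1 treated mouse each), with lines at the 95th and 99th percentile of all genes on the array. All points lie above the 95th percentile, from 0.90 (S1pr1, mouse 3) to 1.94 (Ormdl2, mouse 1), and S1pr1 lies above the 99th percentile in mouse 1 alone.

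On each array the order was Ormdl2, then Acer2, then S1pr1. The means of Ormdl2 and Acer2 differed by less than the SD of either, and the mean of S1pr1 lay below that of Acer2 by more than either SD. Acer2 exceeded S1pr1 by 0.19, 0.10, 0.90 and 0.32 in mice 1 to 4, so that the gap was largest in mouse 3. These values come from different probes, and they compare differences from the pool, not levels of the genes. Mice 1 and 2 against mice 3 and 4, the pairs of arrays that resembled each other, had means of 1.61 and 1.60 for Ormdl2, 1.28 and 1.55 for Acer2, and 1.13 and 0.94 for S1pr1. The single values of the pairs overlapped for all 3 genes, and the higher S1pr1 mean of mice 1 and 2 rests on mouse 1.

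Set among the 6057 genes with a value on all 4 arrays, Ormdl2 had rank 8 by mean, Acer2 rank 13 and S1pr1 rank 76. The share of these genes with values above 0 on all 4 arrays was 24.8%, and 1.25% had a mean at least as high as that of S1pr1. The members were chosen from this contrast, so nothing is read from these shares. The median SD over mice of these genes was 0.18. S1pr1 was at that level, whereas 80.0% of the genes had a smaller SD than Ormdl2 and 78.2% a smaller SD than Acer2.

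**Figure D2:**
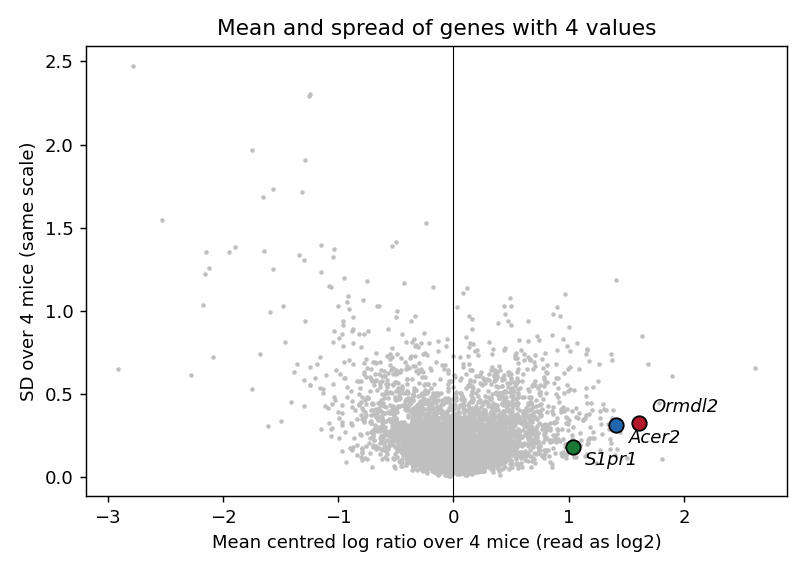
SD over the 4 mice (vertical axis) against the mean centred log ratio (horizontal axis, read as log2) for the 6057 genes with 4 values, with 1 grey point a gene and the 3 sphingolipid genes in colour. Ormdl2 (1.61) and Acer2 (1.41) lie far to the right with SDs of 0.33 and 0.31, and S1pr1 (1.03) has an SD of 0.18.

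The close relatives of the 3 genes lay nearer to 0. Ormdl1, which encodes another ORMDL protein, had values of 0.13, 0.17, 0.30 and 0.19 in mice 1 to 4 and did not pass the test over all genes (0.20 ± 0.07, SD, n = 4; limma adjusted p = 0.105). Ormdl3, whose human counterpart lies at a childhood asthma locus, had -0.06, -0.22, 0.40 and 0.32, so mice 1 and 2 were below 0 and mice 3 and 4 above (limma adjusted p = 0.576). The highest value of either gene, 0.40, was far under the lowest of Ormdl2, 1.29. On the same arrays Ormdl2 exceeded Ormdl1 by 1.41 ± 0.33 and Ormdl3 by 1.50 ± 0.39 (SD, n = 4). As Ormdl2 was chosen for its height, the gap was not tested.

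Of the other ceramidases, Asah1, which encodes the acid ceramidase of lysosomes, had values of 0.95, 0.65, 0.83 and 0.58 in mice 1 to 4. These are all above 0 and below the values of Acer2 on the same arrays. Asah1 passed the test (0.75 ± 0.17, SD, n = 4; limma adjusted p = 0.0104). It also passed in all 10 alternative fits, among them those without each mouse, with adjusted p up to 0.0395. Asah2, the neutral ceramidase gene, had values from 0.09 in mouse 2 to 0.41 in mouse 3 and did not pass (limma adjusted p = 0.125). Acer2 exceeded Asah1 by 0.66 ± 0.24 and Asah2 by 1.20 ± 0.21 (SD, n = 4). As Acer2 was chosen for its height, these gaps were not tested. Acer1 and Acer3 were not among the probe symbols and are not analysed here.

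Among the receptors of sphingosine-1-phosphate, S1pr2, which couples also to G proteins that contract cells, had -0.06, -0.34, -0.35 and -0.02 in mice 1 to 4 and did not pass (limma adjusted p = 0.192). S1pr4, a receptor of blood cells, had 0.17, 0.08, 0.33 and 0.07 and did not pass either (limma adjusted p = 0.195). Neither range met that of S1pr1, whose lowest value was 0.90. S1pr1 exceeded S1pr2 by 1.22 ± 0.16 and S1pr4 by 0.87 ± 0.23 (SD, n = 4). As S1pr1 was chosen for its height, these gaps were not tested. Of the genes with 4 values, 1.25% had a mean at least as high as that of S1pr1, so most genes would lie below it. S1pr3 and S1pr5 have probes on the array without a value for any mouse.

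**Figure D3:**
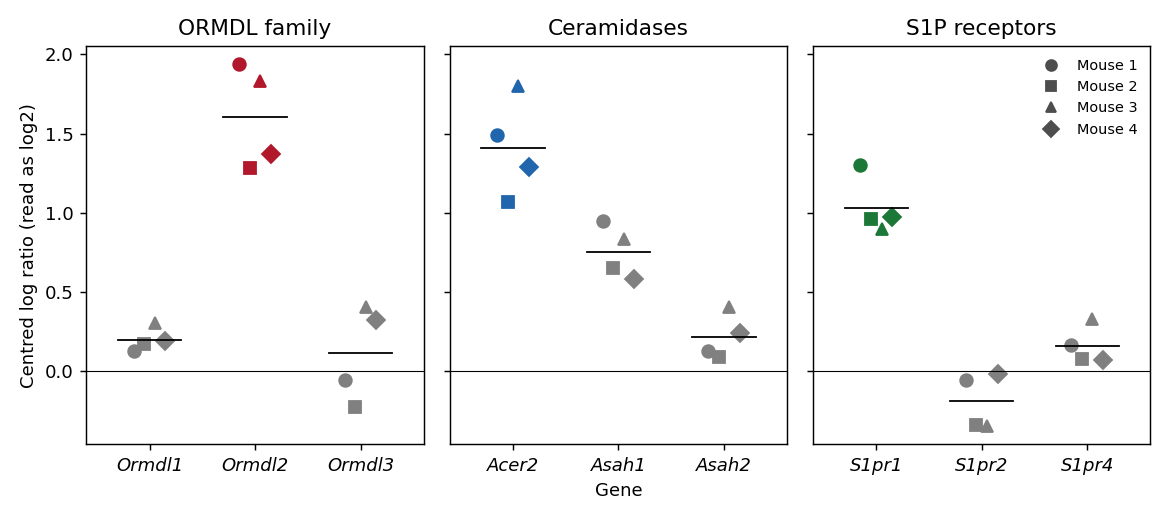
Centred log ratio (vertical axis, read as log2) of each mouse (point shape) and the mean (line) for the ORMDL, ceramidase and sphingosine-1-phosphate (S1P) receptor genes with values. Ormdl2 and S1pr1 do not overlap their relatives, and Acer2, from 1.07 to 1.80, lies above Asah1, from 0.58 to 0.95. Ormdl2, Acer2 and S1pr1 were chosen for their height, so the gaps were not tested.

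The rest of the pathway was described through 9 gene lists of 88 genes beside the members. Of these, 68 had a probe, 54 had a value and 41 had values for at least 3 mice. Of the 41, 6 passed the test above 0 and 1 below (limma, Benjamini-Hochberg adjusted p at most 0.05). With the arrays of mice 1 and 2, and of mice 3 and 4, as a random block, 2 passed above 0 and 0 below. The 2 were Asah1 and Smpdl3a. The 6 also hold Gnai3, a G protein subunit gene, and the product of Smpdl3a is known to act on nucleotides. Over all 8384 genes the test called 12.5%, 7.69% above 0 and 4.81% below. The mean was above 0 for 29 of the 41 genes, or 70.7%, against 50.2% of all genes tested. The median of the 41 means was 0.11, and that of all genes 0.00. These are counts, and no set test was made.

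In de novo synthesis, Degs1, the desaturase that completes ceramide, had 0.50, 0.29, 0.36 and 0.58 in mice 1 to 4 and passed the test (0.43 ± 0.13, SD, n = 4; limma adjusted p = 0.0249). The call was lost without mouse 1, 3 or 4 (limma adjusted p = 0.0827, 0.0680 and 0.0843) and with the block of paired arrays (limma adjusted p = 0.0589). It was the 1 gene past the test of 4 in its list, whose median was 0.27. Cers2, a ceramide synthase gene for very long acyl chains, had 1.61 in mouse 3 and 0.18 to 0.80 in the other mice and did not pass (limma adjusted p = 0.0752). Of 4 genes of serine palmitoyltransferase and its ORMDL regulators beside Ormdl2, 0 passed limma and 2 had an unadjusted p under 0.05. Sptlc2, a catalytic subunit of the enzyme that ORMDL proteins hold back, had 1.26 in mouse 3 and 0.42 to 0.50 in the other mice, just outside the threshold (limma adjusted p = 0.0511). With arrays scaled to equal spread it passed (limma adjusted p = 0.0299), as it did among genes with values on all 4 arrays (limma adjusted p = 0.0452). Sptlc2 did not pass with the block (limma adjusted p = 0.109) or whichever mouse was left out (limma adjusted p from 0.0534 to 0.103).

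In the sphingomyelin list, 2 of 7 genes passed above 0 and 0 below, and the median was 0.10. Smpdl3a had 1.00, 1.61, 1.56 and 1.21 in mice 1 to 4, with a mean of 1.35 ± 0.29 (SD, n = 4; limma adjusted p = 0.00707). This was the highest mean of the 41 genes, and it passed in all 10 alternative fits, with adjusted p up to 0.0307. Smpdl3a is named for its likeness to acid sphingomyelinase, but its product is known as a phosphodiesterase of nucleotides. Smpd1, the gene of acid sphingomyelinase itself, had values from 0.05 to 0.14 in 3 mice and did not pass (limma adjusted p = 0.429). Sgms1, a sphingomyelin synthase gene of the Golgi, passed narrowly (0.58 ± 0.26, SD, n = 3; limma adjusted p = 0.0489). Sgms1 has no value in mouse 4, and no fit that left out a mouse kept it (limma adjusted p from 0.0583 to 0.148), nor did the block (limma adjusted p = 0.0864). The fit without mouse 4 took away no value of Sgms1 (limma adjusted p = 0.0774). Sgms2, the gene of the other synthase, had a mean of -0.11.

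Among the genes of glycosphingolipid breakdown, 1 of 5 passed, Psap, the precursor of the saposins that help lysosomal enzymes reach their lipids. Psap had 0.37 in mouse 1, 1.04 in mouse 3 and 1.30 in mouse 4 and no value in mouse 2 (0.90 ± 0.48, SD, n = 3; limma adjusted p = 0.0489). Psap was lost without mouse 3 or 4 (limma adjusted p = 0.145 and 0.144) and without centring (limma adjusted p = 0.0518). It was also lost with the block (limma adjusted p = 0.0823). Leaving out mouse 2 took away no value of Psap. That step changed the fit over all genes, in which Psap did not pass (limma adjusted p = 0.0593). The list's median was 0.14. Of 3 genes of glycosphingolipid synthesis, 0 passed limma and 0 had an unadjusted p under 0.05. Their median was -0.03.

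Between ceramidase and receptor, the genes that make, degrade and carry sphingosine-1-phosphate had means on both sides of 0, from -0.72 to 0.27. Of 9, 0 passed above 0 and 1 below, with a median of 0.02. An unadjusted limma p under 0.05 was found for 2 above 0 and 2 below. Sphk2, another sphingosine kinase gene, had 0.14, 0.24, 0.10 and 0.18 in mice 1 to 4, and Abcc1 had a mean of 0.27. Neither passed (limma adjusted p = 0.140 and 0.0962). Sphk1, which encodes a kinase that makes the lipid, ranged from -0.08 in mouse 2 to 0.17 in mouse 1 (limma adjusted p = 0.653). Sgpl1, the gene of the lyase that degrades it, had -0.01, 0.04 and 0.02 in mice 1, 2 and 4 (limma adjusted p = 0.911). Abca1, a lipid exporter that has also been tied to the release of sphingosine-1-phosphate, had -0.32, -0.24, -0.35 and -0.24 and passed below 0 (-0.29 ± 0.06, SD, n = 4; limma adjusted p = 0.0415). With 3 mice it did not pass, whichever mouse was left out (limma adjusted p from 0.0882 to 0.124), nor with the block (limma adjusted p = 0.0903). Plpp1, a lipid phosphatase gene, had -1.37 in mouse 3, -1.12 in mouse 4 and 0.07 in mouse 2, too wide a spread to pass (limma adjusted p = 0.108).

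For the coupling of S1pr1, Gnai3, a subunit of the inhibitory G protein, had 0.56, 0.73, 0.29 and 0.41 in mice 1 to 4 and passed (0.49 ± 0.19, SD, n = 4; limma adjusted p = 0.0274). It did not pass without any 1 of the mice (limma adjusted p from 0.0522 to 0.0883), nor with the block (limma adjusted p = 0.0535). Gnai2, another such subunit, ran from 0.07 in mouse 1 to -2.32 in mouse 3 and did not pass (limma adjusted p = 0.159). Klf2, a transcription factor known to switch on S1pr1, had 0.59, 0.19 and -0.16 in mice 1, 2 and 4 and no value in mouse 3 (limma adjusted p = 0.431). Gnai3 was the 1 gene of 5 past the test in this list.

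**Figure D4:**
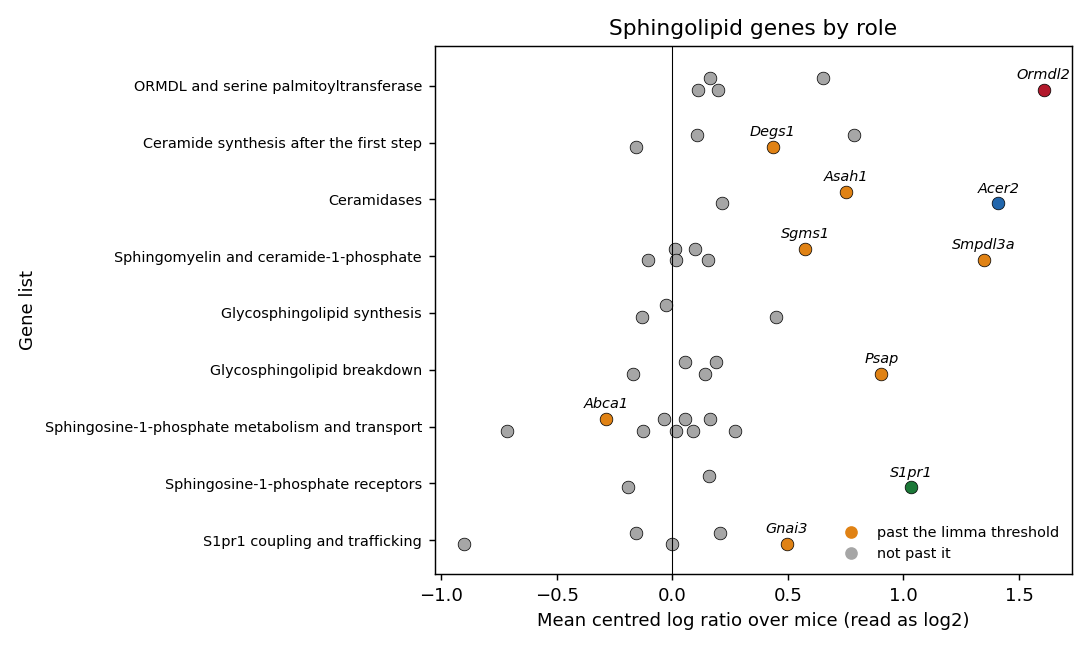
Mean centred log ratio over the mice (horizontal axis, read as log2) of each tested sphingolipid gene, by list (vertical axis). Orange points passed the limma test, grey points did not, and Ormdl2, Acer2 and S1pr1 are in their own colours with no test. Of the other genes Smpdl3a (1.35), Psap (0.90) and Asah1 (0.75) lie farthest above 0 among those past the threshold, and Abca1 (-0.29) is the one below 0 past it.

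Means closest to 0 on the upper side were those of Itch (0.00), Smpdl3b (0.01) and Sgpl1 (0.02), and on the lower side those of Gal3st1 (-0.03), Plpp2 (-0.04) and Sgms2 (-0.11). The lowest single value of the 3 chosen genes was 0.90.

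S1pr1 is abundant in lung endothelium, and 17 of the 18 endothelial markers tested had a mean above 0. Of these 18 markers, 8 were past the threshold above 0 and 0 below it. Over all genes tested, 7.69% passed above 0 and 4.81% below. The markers had a median of 0.45 and a range of means from -0.01 to 1.61. The count of 8 became 5 with the paired arrays as a block and 6, 7, 5 and 3 without mouse 1, 2, 3 or 4. Their median in each mouse was 0.72, 0.77, 0.47 and 0.21. S1pr1 was higher than this in each, but it was chosen for its height, so nothing is read from that. The means of Tmem100, Tek (1.18) and Pecam1 (1.07) were above that of S1pr1 (1.03), and those of the other tested markers below it. Tmem100 was the marker farthest above 0 (1.61 ± 0.34, SD, n = 4; limma adjusted p = 0.00653). Kdr, a receptor gene among the endothelial markers, had values of -0.12 and -0.20 in the 2 mice that had one. Robo4 had -0.03 and -0.11 in mice 1 and 2, and Erg -0.385 in mouse 4. Eng had 0.23 and 0.32 in mice 1 and 2. Cdh5, the junction cadherin gene, had no value. Of 12 lymphocyte markers 1 passed above 0, Cd2 (0.47 ± 0.19, SD, n = 4; limma adjusted p = 0.0321), and 0 below, with a median of -0.05. This count of 1 of 12 is close to the share of all genes past the test above 0, 7.69%. Cd2 was lost with the block (limma adjusted p = 0.0688) and without mouse 1, 3 or 4 (limma adjusted p = 0.0936, 0.0835 and 0.0957). The part of cell numbers in the values of S1pr1 was not tested.

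Markers of other cell types lay off 0 as well. For the counts that follow, 4.81% of all genes tested passed below 0 and 7.69% above. Striated muscle markers had a median of -2.13, 7 of 14 past the test below 0 and 0 above, with list medians from -2.78 in mouse 1 to -0.83 in mouse 2. Tnnc2 was the farthest from 0 of these. The count of 7 became 2 with the block of paired arrays and 3, 8, 2 and 2 without mouse 1, 2, 3 or 4. Fat cell markers had 4 of 7 below, with a median of -0.79, of which Cidea was the farthest. None of the 4 fat cell calls was left with the block or without mouse 1, 3 or 4, and without mouse 2 the count was 5. Neutrophil markers had 2 of 5 below, S100a8 being the farther, with a median of -0.33. The count stayed at 2 with the block and without mouse 1 or 3. It was 3 without mouse 2 and 1 without mouse 4. Of 11 markers listed under alveolar epithelium, all with values, 2 passed above 0 and 1 below, with Sftpa1 the farthest at 1.28. Their median was 0.46, and 8 of the 11 had a mean above 0. The 11 include Scgb1a1, a gene of airway club cells, with a mean of -0.15. Aqp5, the 1 past the test below 0, did not pass with the block (limma adjusted p = 0.0813). Nor did it with any mouse left out (limma adjusted p from 0.0699 to 0.131). A ratio gives no level, so the labelled tissue could be checked only this far. The part of these cell types in the sphingolipid values was not tested.

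Neighbouring genes in the RefSeq table were set beside the members. Dnajc14, whose span overlaps that of Ormdl2, had -0.08, -0.06 and 0.12 in mice 1 to 3 (limma adjusted p = 0.964). Of the genes next to Acer2, Slc24a2 had a mean of -0.09 (limma adjusted p = 0.478) and Rps6 had -0.08 and -0.02 in the 2 mice with a value. Dph5, next to S1pr1, had a mean of 0.18 (limma adjusted p = 0.283).

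The genes most like each member were found by the root mean square difference over the 4 arrays among 6020 genes outside the sphingolipid lists. For Ormdl2 they were Smg1 (0.28), Krcc1 (0.32) and 3021401C12Rik (0.32). For Acer2 they were Hsd3b7 (0.17), Gabpa (0.20) and Rdx (0.20). S1pr1 had the closest match, Dr1 at 0.08, whose values were 1.23, 0.85, 0.84 and 0.94 in mice 1 to 4, followed by Dnajb6 (0.10) and 2310076G13Rik (0.15). Within a difference of 0.25 there were 28 genes for S1pr1, 7 for Acer2 and 0 for Ormdl2. The difference includes the level, and fewer genes lie as high as Acer2 and Ormdl2, so these counts say nothing of a shared pattern.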

How the data were processed

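The authors deposited 1 log ratio per spot and array, read here as log2 from its range; which channel is on top, the dyes and any correction or scaling before deposit are not named in the labels. The table had 17280 spots, 14722 with a single symbol in the platform's annotation, an old one, and 0 other columns of per-sample values. Each array was centred on its median and probes of a symbol were averaged. Genes with at least 3 values were tested against 0 with limma 3.58.1 (R 4.3.3; lmFit with an intercept, eBayes, two-sided, Benjamini-Hochberg adjustment over 8384 genes, threshold 0.05). Missing values were not imputed. On simulated data with the real spread, 79 of 100 genes shifted by 1 and 97 of 100 shifted by 2 were recovered. There were 8 calls among the unchanged of 8384 genes. The simulated noise was independent between arrays, whereas the real arrays resembled each other in pairs. The recovery and the false calls may therefore not hold for these data. All simulated shifts were above 0 and none was smaller than 1, so the recovery of smaller shifts was not measured. The members and lists were chosen with earlier results of these data known. Named genes were the members, their relatives with values, list genes past the test and those closest to 0. Cdh5, Kdr, Klf2, Sphk1 and Sgpl1 were named too. So were the genes most like each member and the marker of each list farthest from 0 past the test. Sptlc2, Cers2, Smpd1, Plpp1, Gnai2, Sphk2, Abcc1, Pecam1, Tek, Eng, Erg, Robo4, Scgb1a1 and neighbouring genes were added after values were seen. Alternatives were no centring, equal array spread, values on 4 or at least 2 arrays, the median of probes, array pairs as a random block, and leaving out each mouse.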

Additional observations from a re-analysis of the deposited data

How the results depend on the processing

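The means of Ormdl2, Acer2 and S1pr1 stayed above 0 and moved by less than their SD under no centring, equal array spread and every choice of probes, and ranged from 1.50 to 1.71, 1.28 to 1.53 and 0.94 to 1.08 when a mouse was left out. Each has 1 probe, so the choices of probes could not change them. No mean of the 41 other genes changed sign without centring or with equal array spread. Over all genes, 1048 passed limma, 402 with the arrays of mice 1 and 2, and of 3 and 4, as a random block, and 296 to 573 without 1 mouse, when 187 passed in all such fits. With that block, 0 genes passed in ceramide synthesis, glycosphingolipid breakdown, sphingosine-1-phosphate metabolism and S1pr1 coupling, and 1 in the sphingomyelin list, Smpdl3a. Without 1 mouse, the counts were 0 to 1 in ceramide synthesis, glycosphingolipid synthesis and glycosphingolipid breakdown, 0 in sphingosine-1-phosphate metabolism and S1pr1 coupling, and 1 in the sphingomyelin list. The 1 in glycosphingolipid synthesis was B4galnt1 without mouse 2 (limma adjusted p = 0.0387). With values on all 4 arrays, or with equal array spread, 1 gene of the serine palmitoyltransferase list passed, 1 of the sphingomyelin list and 0 of glycosphingolipid breakdown. With at least 2 arrays the last 2 counts were also 1 and 0, and without centring glycosphingolipid breakdown had 0. Sgms1 and Psap have 3 values and dropped out of the fit on 4 arrays. No paired analysis was possible because the study has 1 group. Signal over background is not part of the table, so dim spots could not be judged.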

Other observations

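Some sphingolipid genes had values in too few mice for the test. Of 68 with a probe beside the members, 13 had values in 1 or 2 mice and 14 in 0. Ugcg, the gene of glucosylceramide synthase, which starts glycosphingolipid synthesis, had -0.05 and -0.07 in mice 1 and 2. Degs2, which makes phytoceramide, had -0.14 and -0.19 in the same mice. Apom, which carries sphingosine-1-phosphate in plasma, had 0.02 in mouse 3 and no other value. They were named after their values were seen.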
